A study of Mus musculus and Homo sapiens with 24 samples.

Results

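The genes described here are the protein-coding genes of human chromosome 15 that K-562 cells express, 302 genes out of the 58721 human genes in the count tables. They were chosen by position (GENCODE, build hg38) and by a mean of at least 5 CPM (counts scaled to library size) over the 12 K-562 libraries. Of the 595 protein-coding genes annotated on the chromosome, 308 reached that level, and 6 of these were left out by symbol (CHAC1 and the symbols that start with RPL, RPS, NDUF, COX or COL). All 302 passed the filter on low counts of the test. The chromosome was itself picked because its genes differ between the 2 lines compared, so the counts for KO against WT describe that choice and are not evidence for it.

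K-562, an erythroid-like line, was derived from a patient's chronic myeloid leukaemia. Its polyadenylated RNA was sequenced to ask how TET2 loss and MBD6 depletion combine. TET2 oxidises methylated cytosine in DNA and RNA, and MBD6 is a methyl-CpG-binding-domain protein of the BAP1 deubiquitinase complex. There were 4 groups of 3 libraries: WT cells with a control hairpin (WT shControl), WT cells with a hairpin against MBD6 (WT shMBD6), cells labelled TET2 knockout with the control hairpin (KO shControl) and the same with the MBD6 hairpin (KO shMBD6). All 4 carried a lentiviral hairpin and grew under puromycin. Per the study's methods the TET2 knockout line and WT cells came as a gift from the laboratory that made them, and WT K-562 also came from a cell bank. Which WT cells these libraries hold and how many knockout clones there were is not stated in the sources used here, so genotype cannot be told apart from any other difference between the WT and KO lines. Nothing in the labels says that the 3 libraries of a group are separate cultures. For the genome-wide data of its main K-562 figure the paper names 3 biological replicates, without saying that these were separate cultures. The p-values therefore measure the spread between these libraries, which may be technical.

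Chromosome 15 is acrocentric: its short arm holds ribosomal RNA repeats, and its protein-coding genes lie on the long arm. That arm opens with the imprinted 15q11-q13 region and carries a number of genes of mitosis and DNA repair as well as enzymes such as PKM and IDH2. RNA levels usually follow the number of gene copies gene by gene, so in aneuploid lines a gained or lost chromosome shows as a shared shift of its genes. K-562 is such an aneuploid line. RNA counts do not measure DNA, and the number of copies of the chromosome in either line was not tested.

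The libraries held 27625013 to 39877202 gene counts. The 13 K-562 markers included 12 above 10 CPM in every library (HBE1 was under 1 CPM), and their summed level was 3343 to 3451 CPM in WT shControl, 2224 to 2333 CPM in KO shControl, 4020 to 4363 CPM in WT shMBD6 and 2219 to 2277 CPM in KO shMBD6 libraries. Most of that gap was the fetal globin gene HBG2, at a mean of 1499 CPM in WT shControl and 463 CPM in KO shControl, while TFRC was at 309 and 457 CPM and LYL1 at 348 and 381 CPM. Of 15 markers of other cells, 4 (LYZ, EPCAM, KRT8 and KRT18) were above 10 CPM in every library and 7 were under 1 CPM in every library, and their sum was 1092 to 1095 CPM in WT shControl, 831 to 881 CPM in KO shControl, 1318 to 1344 CPM in WT shMBD6 and 1071 to 1119 CPM in KO shMBD6. In bulk RNA, fewer cells of a type and less RNA per cell cannot be told apart. TET2 counts did not separate the lines with shControl (28.4 to 33.6 CPM in WT and 32.7 to 34.1 CPM in KO), so gene counts do not check the knockout. MBD6 fell in both lines with its hairpin (77.3 to 88.4 against 36.8 to 38.9 CPM in WT, 73.4 to 82.3 against 42.4 to 43.9 CPM in KO). The log2 fold change was -1.12 in WT and -0.84 in KO, so MBD6 RNA was depleted less in KO. ERCC spike-ins made up 0.872% to 0.881% of gene counts in WT shControl and 0.320% to 0.397% in the other 9 libraries, and levels below are relative to all genes unless spike-in scaling is named. KO shMBD6 replicate 3 stood apart: its counts differed from the other 2 libraries of its group by a chi-square of 10.07 and 8.31 per gene, against 3.03 to 5.65 for the other pairs of replicates. Of members from 20 CPM, 9 were at least 1.3-fold above both other libraries of the group there, and none were so in any other library. Without it 268 members were called higher and 10 lower in KO with shMBD6, with a median of 0.501.

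The 250 bases before the annotated gene start are shown for NEO1, a member with a large rise, and for the 3 members that went against the chromosome (SCG3, MFGE8 and ARRDC4). They are hg38 sequence, written 5′ to 3′ on the strand of the gene, with each CpG in capitals; CpG reads the same on both strands. The annotated start is that of the longest gene model and may not be the start used in K-562.
NEO1 (chr15:73051460-73051709, plus strand): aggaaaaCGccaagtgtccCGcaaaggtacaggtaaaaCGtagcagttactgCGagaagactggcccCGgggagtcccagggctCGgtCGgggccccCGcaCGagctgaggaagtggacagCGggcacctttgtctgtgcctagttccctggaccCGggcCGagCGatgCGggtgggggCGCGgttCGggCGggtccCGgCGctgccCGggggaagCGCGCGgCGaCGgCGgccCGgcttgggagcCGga
SCG3 (chr15:51681242-51681491, plus strand): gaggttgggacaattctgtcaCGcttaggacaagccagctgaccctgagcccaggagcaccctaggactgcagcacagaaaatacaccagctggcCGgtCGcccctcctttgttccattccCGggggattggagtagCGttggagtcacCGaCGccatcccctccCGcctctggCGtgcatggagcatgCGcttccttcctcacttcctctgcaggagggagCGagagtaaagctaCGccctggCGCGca
MFGE8 (chr15:88913469-88913718, minus strand): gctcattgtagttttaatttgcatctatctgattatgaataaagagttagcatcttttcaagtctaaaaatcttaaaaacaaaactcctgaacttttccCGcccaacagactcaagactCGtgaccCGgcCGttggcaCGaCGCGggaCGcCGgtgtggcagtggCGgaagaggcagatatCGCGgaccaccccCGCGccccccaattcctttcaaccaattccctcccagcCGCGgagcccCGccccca
ARRDC4 (chr15:97960453-97960702, plus strand): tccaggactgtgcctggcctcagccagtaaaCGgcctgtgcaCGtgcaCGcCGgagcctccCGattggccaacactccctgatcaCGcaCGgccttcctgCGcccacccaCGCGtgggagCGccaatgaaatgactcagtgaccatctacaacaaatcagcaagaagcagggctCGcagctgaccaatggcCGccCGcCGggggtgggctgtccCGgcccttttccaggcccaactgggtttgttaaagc
NEO1 had 29 CpGs in this window. SCG3 had 14, MFGE8 17 and ARRDC4 16. The median over the 302 members was 17 (quartiles 11 and 25) and over all 595 protein-coding genes of the chromosome 15. NEO1 was above the upper quartile of the members, and the 3 genes that fell were between the quartiles. NEO1 is not typical of the members with a large rise: the 18 called at least 2-fold higher with shControl had a median of 11.5.

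The members were higher in KO than in WT cells as a body. Of the 302 members, 274 (90.7%) were called higher in KO with shControl and 3 were called lower, where 22.2% of all 17936 genes tested were called higher and 20.7% lower. The median log2 fold change of the members was 0.55, a 1.46-fold level, with quartiles of 0.38 and 0.70 (1.31-fold and 1.63-fold), against 0.0045 over all genes tested. With shMBD6, whose 6 libraries are others, 273 were called higher and 11 lower (22.9% and 21.6% of all genes tested), and the median was 0.52, a 1.43-fold level, with quartiles of 0.34 and 0.68. Called higher with both hairpins were 259 members and lower with both 3, where 13.7% and 11.9% of all genes tested were. Around the median, 215 of the 302 members (71.2%) lay within 0.25 log2 units with shControl, and 206 (68.2%) with shMBD6. For shMBD6 against shControl, where the members' median stayed near 0, 68.5% did so in WT and 77.5% in KO. This spread therefore does not set the shift apart, and the same share over all genes tested was not computed. In 275 members all 3 KO shControl libraries were above all 3 WT shControl libraries, and in 7 all were below, where 26.3% and 24.9% of all genes tested did so.

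The members took 1.54%, 1.53% and 1.53% of the gene counts in the WT shControl libraries and 2.24%, 2.22% and 2.25% in the KO shControl libraries. The groups did not overlap, and the means were 1.53% ± 0.00754 and 2.23% ± 0.0152 (SD, n = 3 each), a ratio of 1.46. With shMBD6 the shares were 1.598% ± 0.00386 in WT and 2.25% ± 0.0119 in KO, a ratio of 1.41. Read library by library against the mean of WT shControl, the median log2 level of the members was 0.539 to 0.554 in KO shControl, 0.528 to 0.538 in KO shMBD6, 0.0226 to 0.0459 in WT shMBD6 and -0.0043 to 0.0095 in the WT shControl libraries themselves. Every KO library was therefore above every WT library by several times the spread within a group.

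**Figure D1:**
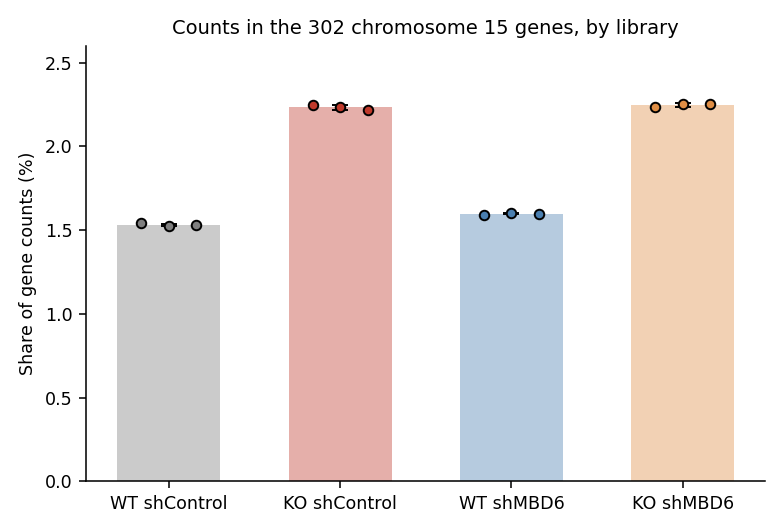
Share of all gene counts (%) that fell in the 302 chromosome 15 genes, by library. Bars are group means, lines the SD and points the 3 libraries of a group. The KO libraries lie between 2.22% and 2.26% and the WT libraries between 1.53% and 1.601%.

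Among the chromosomes, the median of protein-coding genes of at least 5 CPM was highest on chromosome 15 with both hairpins (0.55 and 0.52 over 308 genes, counting those left out by symbol). Chromosome 8 followed at 0.28 and 0.29 and chromosome 7 at 0.14 and 0.13. The other 20 chromosomes had medians from -0.17 to 0.022 with shControl and from -0.099 to 0.0013 with shMBD6. The shift therefore stood apart from 20 of the 22 other chromosomes by more than their whole range.

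**Figure D2:**
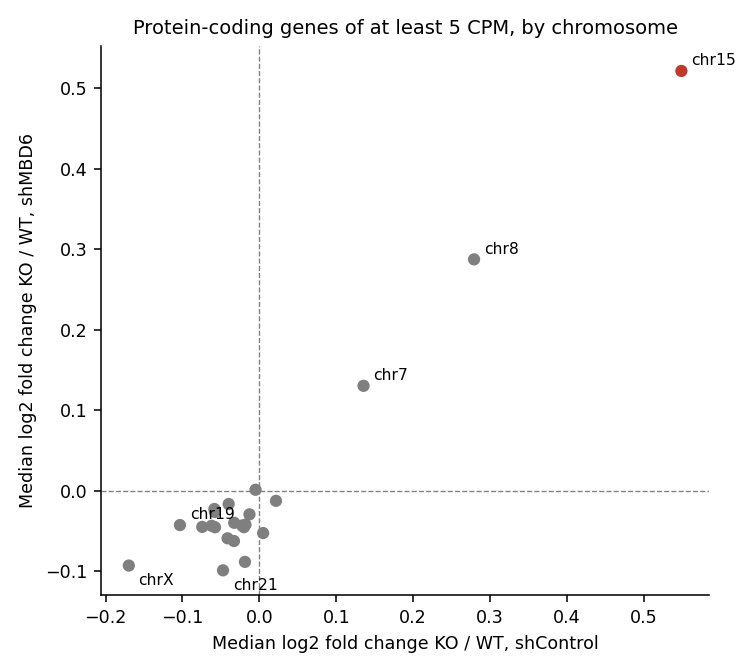
Median log2 fold change of KO against WT for the protein-coding genes of at least 5 CPM on each chromosome, with shControl (horizontal) and shMBD6 (vertical), 1 point a chromosome. Chromosome 15 lies at 0.55 and 0.52, chromosome 8 at 0.28 and 0.29, chromosome 7 at 0.14 and 0.13, and the other 20 lie at or below 0.022.

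Genes of chromosome 15 that the rule did not take showed the same direction at the median. The 6 genes left out by symbol, among them the ribosomal protein genes RPL4 and RPLP1, were all called higher with both hairpins (median log2 fold changes of 0.49 and 0.56). The 109 tested protein-coding genes under 5 CPM had medians of 0.82 and 0.72, and 52 of them were called higher and 3 lower with shControl. For 115 long non-coding RNAs the medians were 0.48 and 0.56, with 29 called higher and 2 lower, and for 70 pseudogenes they were 0.42 and 0.46, with 28 and 0. Over all genes tested with shControl 22.2% were called higher and 20.7% lower. The 29 long non-coding RNAs called higher are near that share, and the 2 called lower are under it. The filter on low counts lets a low gene pass through the group where it is high, so these counts carry that bias. At the 5 CPM limit, the members just inside were IQCH (5.05 CPM, 0.40 and 0.28) and MRPL46 (5.12 CPM, 0.60 and 0.91), and the genes just outside were CHRNA5 (4.85 CPM, 0.32 and 0.72) and LYSMD4 (4.75 CPM, -0.80 and -0.37).

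Along the chromosome the median was above 0 in every bin of 10 Mb. The first member, NIPA1, starts at chr15:22773063 and the last, TARS3, ends at chr15:101724473. In bins of 10 Mb of gene start with at least 10 members, the median log2 fold change with shControl ran from 0.47 (90 to 100 Mb, 21 members) to 0.57 (70 to 80 Mb, 54 members), a spread of 0.097. That spread was 0.178 without WT shControl replicate 1 and 0.158 in bins of 5 Mb. With shMBD6 the medians of the same bins ran from 0.33 (90 to 100 Mb) to 0.55 (40 to 50 Mb, 69 members). The running median over 21 neighbouring members stayed between 0.44 and 0.67 with shControl and between 0.32 and 0.68 with shMBD6, and no stretch of that length reached 0.

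Splitting the row of members at the 2 places that best part high from low with shControl lowered the summed absolute deviation by only 1.64%. The split set off the 15 members from CCDC32 to LTK (chr15:40528683-41513887), between CHST14 and RPAP1, with a median of 0.37 against 0.52 before and 0.56 after. In the shMBD6 libraries, which did not set the split, the same 15 members had a median of 0.55 against 0.48 and 0.52, so the dip was not seen again. A split set in the shMBD6 libraries instead cut off the last 17 members, from RCCD1 onward, with medians of 0.21 with shMBD6 and 0.40 with shControl. Over all 301 adjacent pairs, neighbours shared little of their size of change: Spearman's rho of the log2 fold changes was 0.053 with shControl and 0.084 with shMBD6. These pairs share libraries and are given as a description. Some of the largest rises did start close together, such as AVEN and PGBD4 (0.243 Mb), SPRED1 and RASGRP1 (0.235 Mb), and TLNRD1, CFAP161 and IL16. Others, such as NEO1 and ANPEP, started more than 1 Mb from the next.

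**Figure D3:**
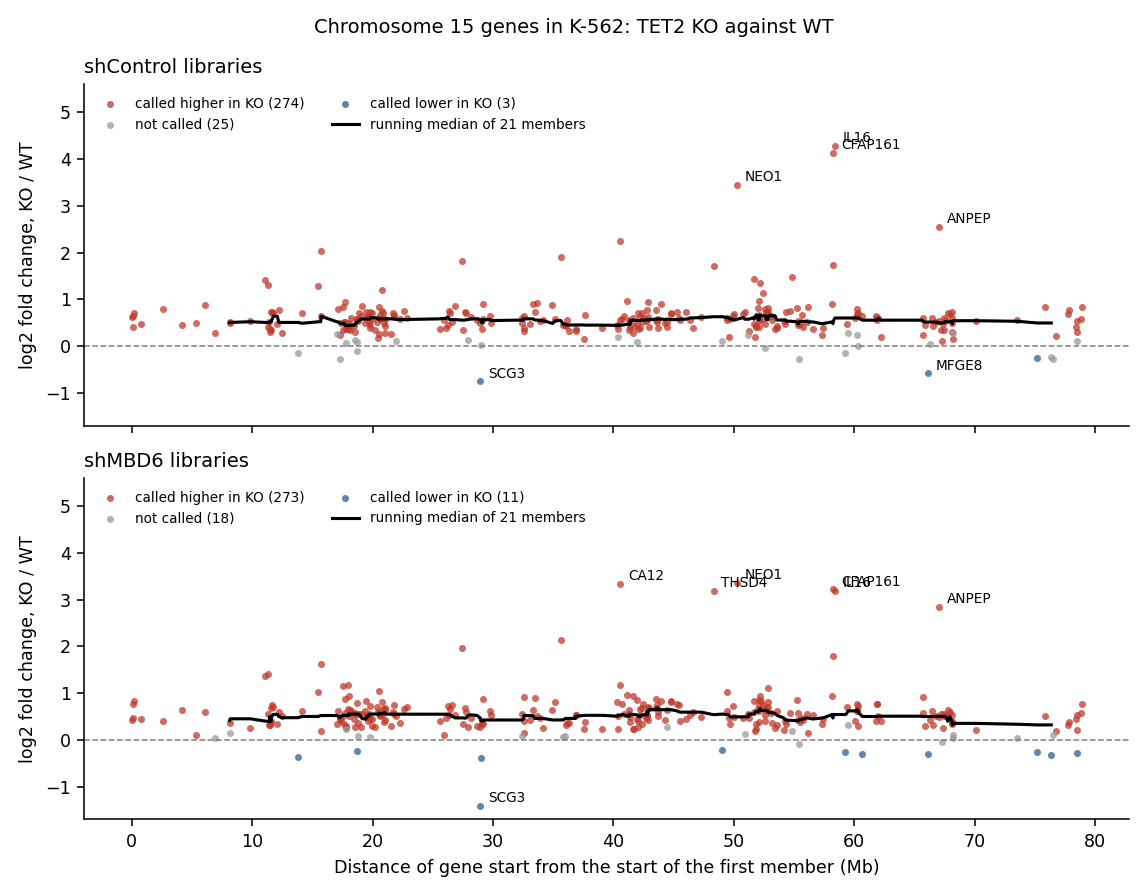
Log2 fold change of KO against WT (TMM normalisation) for the 302 members by the distance of their start from the first member (Mb), with shControl (top) and shMBD6 (bottom). Red points were called higher, blue lower and grey not called, and the black line is the running median of 21 members, which stays between 0.44 and 0.67 (top) and between 0.32 and 0.68 (bottom).

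Between 95 and 100 Mb only 6 members start, and their median was -0.0067 with shControl and 0.071 with shMBD6, a stretch picked out after its values were seen. They were NR2F2, an orphan nuclear receptor (0.55 and 0.05), ARRDC4, an arrestin-domain adaptor of a ubiquitin ligase (-0.26 and -0.27), the growth factor receptor IGF1R (0.84 and 0.50), TTC23 (-0.23 and -0.33), LRRC28 (-0.28 and 0.09) and the transcription factor MEF2A (0.22 and 0.18). Values on both sides of 0 stood next to each other there. The 8 members beyond 100 Mb were back at medians of 0.55 and 0.41.

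Above the shift stood 18 members called at least 2-fold higher in KO with shControl (5.96% of members, 7.10% of all genes tested). In the shMBD6 libraries 19 of the 302 members were called at least 2-fold higher, where 6.86% of all genes tested were. Of the 18, which were picked for a high value in the same lines, 17 were called higher with shMBD6 and 13 were at least 2-fold higher. Of the 18, 9 had a mean under 5 CPM in both WT groups and became members through the KO libraries of both hairpins, which favours a high KO level there, so these counts are given as a description. IL16 (ENSG00000172349.17, chr15:81159575-81314058, plus strand), a cytokine precursor that attracts CD4 cells, had the largest rise with shControl. It measured 2.79, 3.64 and 3.305 CPM in WT shControl, 64.1, 64.7 and 63.6 in KO shControl, 3.72, 4.37 and 5.04 in WT shMBD6 and 39.3, 43.1 and 37.1 in KO shMBD6. Its log2 fold changes were 4.29 (SE 0.0995) and 3.18 (SE 0.0946), 19.5-fold and 9.08-fold. CFAP161 (ENSG00000156206.13, chr15:81007033-81149179, plus strand), a cilia and flagella associated protein whose gene starts 153 kb before IL16, went from 1.23, 1.68 and 0.8697 to 22.02, 22.8 and 23.8 CPM with shControl and from 1.905, 1.98 and 1.83 to 18.4, 17.8 and 17.2 CPM with shMBD6. Its log2 fold changes were 4.14 and 3.22. Neither gene had a KO library near a WT library.

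These 2 genes and TLNRD1, a talin rod domain protein, are consecutive members whose starts lie within 159 kb. TLNRD1 (ENSG00000140406.3, chr15:81000923-81005788, plus strand) went from 15.4, 18.5 and 18.7 to 57.2, 61.4 and 57.7 CPM with shControl (log2 fold change 1.74) and showed 1.79 with shMBD6. On either side the changes were smaller. MESD, a chaperone of lipoprotein receptors that lies next before TLNRD1, showed 0.90 and 0.94, and FAH, an enzyme of tyrosine breakdown before that, 0.38 and 0.45. MEX3B, an RNA-binding protein whose gene starts 882 kb after the start of IL16, showed -0.15 and -0.26. IL16 overlaps STARD5 on the other strand, and the strand setting of the counting is not stated, so reads of that overlap are uncertain.

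NEO1 (ENSG00000067141.16, chr15:73051710-73305205, plus strand), the netrin and repulsive guidance receptor neogenin, came after these with shControl and had the largest rise with shMBD6. It had 2.86, 1.78 and 2.16 CPM in WT shControl and 21.9, 27.2 and 23.5 in KO shControl, and 2.17, 1.71 and 2.03 against 19.7, 22.4 and 18.99 with shMBD6. The log2 fold changes were 3.44 and 3.37, and its neighbours ADPGK (0.68 and 0.49) and NPTN (0.68 and 0.48) were near the chromosome's median. ANPEP (ENSG00000166825.13, chr15:89784895-89815401, minus strand), the aminopeptidase CD13 of myeloid cells, went from 8.805, 8.25 and 10.8 to 49.7, 52.6 and 59.2 CPM with shControl and from 5.12, 3.77 and 4.67 to 34.03, 32.2 and 30.5 CPM with shMBD6 (log2 fold changes 2.54 and 2.84). CA12, a membrane carbonic anhydrase, showed 2.25 and 3.34, RASGRP1, a Ras exchange factor of lymphocytes, 2.03 and 1.61, LIPC, hepatic lipase, 1.90 and 2.14, and SLC27A2, a fatty acid transporter and acyl-CoA synthetase, 1.81 and 1.96. LIPC overlaps ALDH1A2, which is far more abundant, on the other strand, so its level is uncertain. The 18 members had a median mean level of 16.5 CPM against 39.6 CPM over all members, and a median of 11.5 CpGs in the 250 bases before the gene start against 17.

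**Figure D4:**
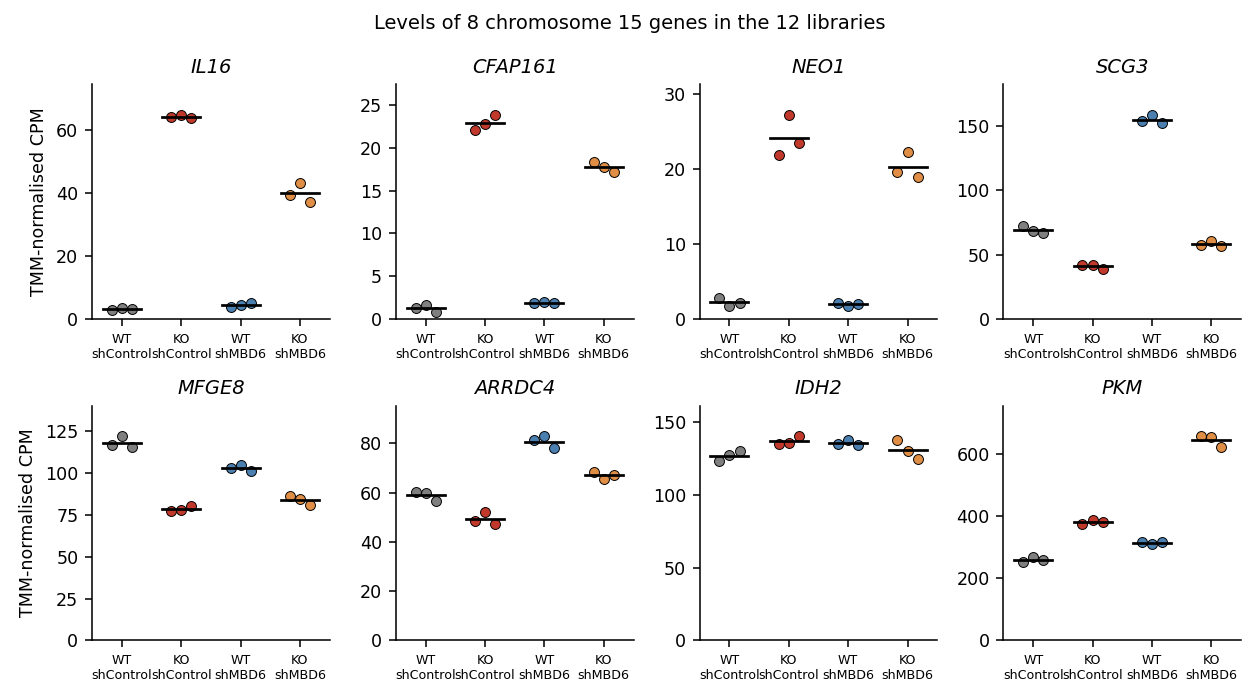
TMM-normalised CPM (vertical axis, from 0) of 8 chromosome 15 genes in the 12 libraries; points are libraries and lines the group means of 3. IL16, CFAP161 and NEO1 are high in KO alone, and SCG3, MFGE8 and ARRDC4 are lower in KO within each hairpin on this scale. IDH2 is slightly higher in KO with shControl and overlaps between the lines with shMBD6, and PKM is highest in KO shMBD6.

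The 3 members called against the shift with shControl were SCG3, MFGE8 and ARRDC4, and all 3 were called lower again in the shMBD6 libraries. SCG3 (ENSG00000104112.8, chr15:51681492-51721026, plus strand), secretogranin III of neuroendocrine secretory granules, had 71.9, 68.5 and 67.04 CPM in WT shControl and 41.96, 41.6 and 39.1 in KO shControl. With shMBD6 it had 154, 158 and 152 CPM in WT and 57.6, 60.2 and 56.6 in KO. The log2 fold change was -0.76 with shControl and -1.41 (SE 0.0426) with shMBD6, where edgeR's quasi-likelihood test gave an adjusted p of 3.18e-16. The gene before it, DMXL2, showed 0.57 and 0.30, and the gene after it, LYSMD2, 0.50 and 0.28. TMOD2, the member after that, with its start 70.1 kb from that of SCG3, showed 0.02 and -0.39 and was called lower with shMBD6.

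MFGE8 (ENSG00000140545.14, chr15:88898683-88913468, minus strand), a secreted bridge that helps phagocytes take up dying cells, had 117, 122 and 116 CPM in WT shControl and 77.6, 78.2 and 80.4 in KO shControl. With shMBD6 the values were 103, 105 and 101 in WT and 86.3, 84.4 and 80.7 in KO, and the groups did not overlap with either hairpin. The log2 fold change was -0.59 with shControl and -0.30 (SE 0.0387) with shMBD6, with an edgeR adjusted p of 2.13e-06. ARRDC4 (ENSG00000140450.8, chr15:97960703-97973833, plus strand) had 60.1, 59.96 and 56.7 CPM in WT shControl and 48.5, 52.004 and 47.2 in KO shControl, then 81.2, 82.8 and 77.9 in WT shMBD6 and 68.2, 65.6 and 67.2 in KO shMBD6. Its log2 fold change was -0.26 and -0.27 (SE 0.0456), with an edgeR adjusted p of 6.05e-05 in the shMBD6 libraries. These are levels relative to all genes. With spike-in scaling, which moved the median of all genes by 1.26 with shControl and 0.31 with shMBD6, SCG3, MFGE8 and ARRDC4 were at 0.50, 0.67 and 1.00 with shControl, and MFGE8 and ARRDC4 at 0.0024 and 0.032 with shMBD6, all below the members' medians on that scale of 1.81 and 0.816.

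A further 25 members were not called with shControl. In the shMBD6 libraries 14 of these were called higher, 7 lower (CDIN1, ITPKA, TMOD2, MYO9A, MEX3B, TTC23 and PCSK6) and 4 neither way (ACSBG1, SAXO2, LRRC28 and ENSG00000284946). TMOD2, a tropomodulin that caps actin filaments, had 22.1, 20.02 and 19.1 CPM in WT shControl and 18.7, 20.8 and 22.5 in KO shControl, which overlap, and 16.5, 18.8 and 16.03 against 14.1, 12.04 and 13.02 with shMBD6, which do not. ITPKA, an inositol trisphosphate kinase, had 70.6, 72.4 and 73.3 against 62.1, 66.8 and 71.6 CPM with shControl and 88.5, 88.3 and 85.4 against 77.1, 75.1 and 70.1 CPM with shMBD6. Without KO shControl replicate 3, ITPKA also passed as lower with both hairpins, and without KO shMBD6 replicate 3 so did MEX3B. B2M, the light chain of MHC class I molecules, was among the 14: its levels were 56.5, 52.6 and 59.4 against 63.2, 59.5 and 58.1 CPM with shControl and 55.2, 52.2 and 52.4 against 78.8, 76.997 and 72.3 CPM with shMBD6. LTK, a receptor tyrosine kinase, was also called higher with shMBD6, but its values of 12.1, 11.4 and 11.6 in WT and 11.7, 12.2 and 36.6 CPM in KO rested on KO shMBD6 replicate 3, without which the log2 fold change was 0.026 in place of 0.79. The same library was high for other members: NIPA2, a magnesium transporter, had 56.2, 57.7 and 90.5 CPM in KO shMBD6 and a log2 fold change of 0.77 with and 0.51 without replicate 3, and for ZFYVE19, a regulator of abscission, with 34.9, 34.9 and 63.3 CPM, it was 0.94 and 0.58. The 9 members of this kind, which include RMDN3 and the mitotic kinesin KIF23, were all called higher in KO with shMBD6 without it too.

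The members were also set against the chromosome rather than against 0. Of the 25 members not called with shControl, 14 were below the members' median in the shMBD6 libraries by edgeR's test and none were above it. Over all 302 members, 79 were above and 91 below, and 132 were not called (6.98% of all genes tested were above and 62.0% below, since other chromosomes did not shift). IDH2 (ENSG00000182054.9, chr15:90083045-90102477, minus strand), the mitochondrial isocitrate dehydrogenase that is mutated in some leukaemias, was one of those below: 123, 127 and 129.9 CPM in WT shControl, 135, 135 and 140.1 in KO shControl, 135, 138 and 134 in WT shMBD6 and 138, 129.8 and 125 in KO shMBD6. Its log2 fold changes were 0.11 and -0.05, and its distance from the median with shMBD6 was -0.57 (SE 0.0385, edgeR adjusted p 2.54e-11). ANXA2, a calcium-dependent membrane binder, showed 0.15 and 0.24, and RCCD1, a partner of a histone demethylase, 0.16 and 0.11. IDH2 and RCCD1 were called higher in KO with shControl and not called with shMBD6. Those shControl calls were lost in 5 (IDH2) and 3 (RCCD1) of 21 alternative fits. CCNDBP1, which binds D-type cyclins, and PDE8A, a cyclic AMP phosphodiesterase, were low with shControl (0.18 and 0.20) and nearer to the median with shMBD6 (0.59 and 0.41).

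**Figure D5:**
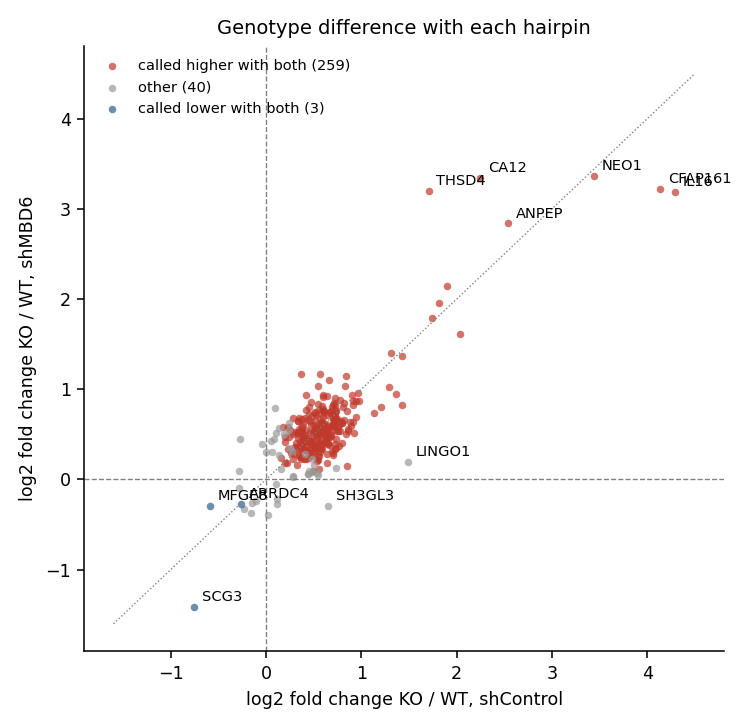
Log2 fold change of KO against WT (TMM normalisation) for the 302 members with shControl (horizontal) and shMBD6 (vertical), 1 point a gene; the dotted line marks equal values. The 259 members called higher with both hairpins (red) cluster around 0.55 and 0.52, and the 3 called lower with both (blue) are SCG3, MFGE8 and ARRDC4.

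The size of a member's change carried over between the hairpin backgrounds only in part: Spearman's rho between the 2 sets of log2 fold changes was 0.547 over the 302 members, which share no library but share both lines. Cut into 3 classes by level, the 100 members at 26.2 to 62.3 CPM had an interquartile range of 0.30 with shControl, the 101 lower ones 0.40 and the 101 higher ones 0.24, with medians of 0.52, 0.60 and 0.54. With shMBD6 their medians were 0.52, 0.53 and 0.47. Classes cut the same way by CpG count around the gene start had medians from 0.53 to 0.55 with shControl and from 0.50 to 0.54 with shMBD6. By GC content of the gene they ran from 0.53 to 0.55 and from 0.47 to 0.54, and by exon length from 0.48 to 0.57 and from 0.45 to 0.55.

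Most members of each functional list were called higher, as were 90.7% of all members. Some entries belong to their heading only loosely, such as CCPG1 (mitosis), RMDN3 (DNA repair), PPIB and TRPM7 (RNA processing) and PDIA3 (metabolism). The counts hold for the lists as written. All 13 members of the list for DNA replication and repair were called higher with shControl and 12 with shMBD6. FANCI, of the Fanconi anaemia pathway, showed 0.59 and 0.62, TP53BP1, which steers repair of double-strand breaks, 0.66 and 0.56, MORF4L1, a chromodomain protein, 0.52 and 0.56, and BLM, the Bloom syndrome helicase, 0.70 and 0.61. Of 15 members of the list for mitosis, 14 were called higher with shControl and 15 with shMBD6, none lower. BUB1B, a spindle checkpoint kinase, had 96.9, 96.8 and 98.1 CPM in WT shControl and 139, 135 and 135 in KO shControl. CCNB2, cyclin B2, showed 0.32 and 0.35, and KNL1, a kinetochore scaffold, 0.37 and 0.25.

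Among 23 members for transcription and chromatin, 23 were called higher with shControl and 22 with shMBD6. CHD2, a chromatin remodeller, showed 0.54 and 0.22, TCF12, a helix-loop-helix factor, 0.56 and 0.26, and COPS2, of the COP9 signalosome, 0.74 and 0.54. Of 15 members for RNA processing and translation, 13 were called higher with shControl and 15 with shMBD6, including PPIB, a cyclophilin of the endoplasmic reticulum (0.41 and 0.50), EIF3J, of an initiation factor (0.67 and 0.75), and SRP14, of the signal recognition particle (0.24 and 0.48). All 13 ubiquitin and proteasome members were called higher with shControl and 12 with shMBD6. Among these PSMA4, a proteasome subunit, showed 0.42 and 0.42, the ligase HERC1 0.64 and 0.55, and the deubiquitinase USP8 0.72 and 0.68.

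Of 12 metabolic members, 10 were called higher with each hairpin and none lower. PKM, pyruvate kinase, showed 0.55 and 1.03, ALDH1A2, which makes retinoic acid, 0.59 and 0.82, and PDIA3, a protein disulphide isomerase, 0.50 and 0.38. Of 20 signalling and cell surface members, 17 were called higher with shControl and 17 with shMBD6, and 1 (ITPKA) was called lower with shMBD6. IQGAP1, a cytoskeletal scaffold, showed 0.57 and 0.50, FURIN, a proprotein convertase, 0.49 and 0.35, and MAPK6, an atypical MAP kinase, 0.58 and 0.33. Among 18 vesicle and lysosome members 17 and 16 were called higher, with the lysosomal protease CTSH at 0.85 and 0.15, RAB27A, a secretory Rab, at 0.48 and 0.08, and SNAP23, a membrane fusion protein, at 0.52 and 0.55. Of 11 blood cell genes, 10 and 9 were called higher.

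The 15q11-q13 list had 7 members, and all 7 were called higher with both hairpins. UBE3A, the ubiquitin ligase behind Angelman syndrome, had 82.97, 78.8 and 77.4 CPM in WT shControl and 140.3, 143 and 134 in KO shControl, and 107, 104 and 102 against 130.4, 138 and 146 with shMBD6. MKRN3, a paternally expressed zinc finger gene, showed 0.47 and 0.45, and CYFIP1, of the WAVE complex and outside the imprinted interval, 0.65 and 0.47. HERC2 showed 0.50 and 0.10, and its call with shMBD6 was lost in 13 of 21 alternative fits. SNRPN and the rest of the list were not members. UBE3A overlaps SNHG14 on the other strand, so its counts are uncertain.

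Within a line the members' median stayed near 0 with the MBD6 hairpin. In WT cells the members' median log2 fold change for shMBD6 against shControl was 0.038, with 87 called higher and 58 lower (28.8% and 19.2% of members, 20.4% and 19.2% of all genes tested). In KO cells it was 0.0006, with 63 higher and 52 lower (20.9% and 17.2%, against 18.5% and 16.3%). With spike-in scaling 300 members were called higher in WT and 163 in KO. Single members moved more. SCG3 rose with the hairpin in both lines, by 1.16 in WT (edgeR adjusted p 5.28e-14) and 0.51 in KO (2.1e-08). ACSBG1, an acyl-CoA synthetase, rose by 1.13 (edgeR adjusted p 5.1e-07) and 1.32 (1.05e-07), and CD276, the checkpoint protein B7-H3, by 1.69 (edgeR adjusted p 5.05e-09) and 1.09 (9.93e-07). BMF, which promotes cell death as a BH3-only protein, rose in KO by 0.89 (edgeR adjusted p 2.58e-05), from 5.21, 5.72 and 6.59 to 10.01, 10.7 and 11.6 CPM, and showed 0.17 in WT (edgeR adjusted p 0.354).

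Members also fell with the hairpin. THSD4, a matrix protein, had 2.57, 3.04 and 3.17 CPM in WT shControl and 1.19, 0.76003 and 0.841 in WT shMBD6, a log2 fold change of -1.66 (edgeR adjusted p 2.79e-07). In KO it had 8.69, 10.4 and 9.68 and 8.13, 8.04 and 9.34 CPM (-0.17, edgeR adjusted p 0.316). THSD4 and IL16, given below, had means under 5 CPM in both WT groups and became members through their KO libraries. Their values here are given as a description, and that of THSD4 in WT rests on low counts. ANPEP fell in both lines, with log2 fold changes of -1.03 in WT and -0.74 in KO (edgeR adjusted p 7.43e-07 and 1.65e-06), and APH1B, a gamma-secretase subunit, showed -0.72 in WT (edgeR adjusted p 0.000877). With spike-in scaling the WT values of ANPEP and APH1B were 0.10 and 0.42 instead. CTSH went from 194, 195 and 206 to 123, 117 and 119 CPM in KO cells (-0.73, edgeR adjusted p 2.16e-11) and from 104, 117 and 110.2 to 109, 106 and 110.0 CPM in WT cells (-0.03, edgeR adjusted p 0.607), and IL16 showed -0.69 in KO (edgeR adjusted p 4.8e-07). PKM rose with the hairpin in both lines, from 373, 386 and 381 to 656, 654 and 622 CPM in KO (0.76, edgeR adjusted p 1.64e-13) and from 253, 267 and 258 to 316, 311 and 317 CPM in WT (0.28, edgeR adjusted p 4.34e-07).

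For 80 members the hairpin acted differently in the 2 lines by the genotype by hairpin interaction, 30 with a higher and 50 with a lower value in KO (9.93% and 16.6% of members, 10.3% and 11% of all genes tested). MBD6 itself was depleted less in KO than in WT, and whether that bears on these values was not tested. With spike-in scaling, which moves all genes together, the interaction was called for 1 member with a higher and 295 with a lower value in KO, and the values that follow are relative to all genes. PKM had an interaction of 0.48 (SE 0.0433, edgeR adjusted p 1.17e-07), with the larger rise in the KO line. UBE3A had -0.40 (edgeR adjusted p 7.41e-05): its level rose with the hairpin in WT (0.39) and was -0.01 in KO (edgeR adjusted p 0.868). RAB27A (-0.40, edgeR adjusted p 5.38e-05) and RPAP1, an RNA polymerase II partner (-0.46, edgeR adjusted p 0.000235), were called higher in KO with shControl and not with shMBD6.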

How the data were processed

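Polyadenylated RNA of 12 K-562 libraries was used, in 4 groups of 3 taken from the sample titles; 12 mouse libraries of the series were not used. The authors deposited unnormalised counts for each gene and library. Per the study's methods and the submitters' processing notes, the authors trimmed reads with Trimmomatic 0.39, aligned them with HISAT2 2.2.1 to hg38 together with the ERCC sequences and counted them with HTSeq 0.12.4 on GENCODE 29. The kit was stranded, but the strand setting of the counting is not given in the sources used here, so overlapping genes are uncertain.

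Rows that name no gene (21.2% to 24.1% of all counts with reads of no feature, ambiguous and not unique) and ERCC rows were set apart. Symbols and positions came from GENCODE 44 (hg38), matched for 99.1% of gene identifiers without version; positions are counted from 1. Genes were filtered with filterByExpr, normalised by TMM and tested with edgeR 4.0.16 (R 4.3.3, glmQLFit and glmQLFTest) in 1 fit of the 12 libraries, with Benjamini-Hochberg adjustment over the 17936 genes tested and a threshold of 0.05 ("called"). Levels are TMM-normalised CPM, and fold changes are log2 values of the fit with their SE. The common biological coefficient of variation was 0.0618. The test was checked on simulated counts. Replicates differed by more than counting noise in each pair.

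The members and the gene lists were chosen with earlier results of these data known. Named are the 8 called members with the highest and the 8 with the lowest change with shControl, those called against the shift with both hairpins, the 5 most abundant, those at the CPM limit, the 3 highest and 3 lowest called for each hairpin contrast and the interaction, the 3 most abundant of each list and those next to a breakpoint; further names were chosen after their values were seen. The difference from the members' median was tested by adding that median to the offsets of the KO shMBD6 libraries. Breakpoints minimise the summed absolute deviation from segment medians with at least 10 members a segment. Alternatives were DESeq2 1.42.0 and its size factors, library size alone, ERCC scaling, no filter, a replicate block, 6-library fits, other membership and bins, and leaving out each library. The first fit used robust dispersions; it was replaced by edgeR's defaults after its results had been seen and is kept as an alternative. The upstream sequences of some members are not reported here.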

Additional observations from a re-analysis of the deposited data

Results flagged for a closer look

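For 80 members the effect of the MBD6 hairpin differed between the lines by edgeR's interaction test, adjusted over all 17936 genes tested. MBD6 itself was depleted less in KO than in WT (log2 fold changes -0.84 and -1.12), and whether that bears on these values was not tested. Of the members, 9.93% were called with a higher and 16.6% with a lower value in KO. Over all genes tested these shares were 10.3% and 11%, so higher values were no more frequent among the members, while lower values made up a larger share. Whether the shares differ was not tested. The 3 members with the highest and the 3 with the lowest interaction values are given.

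LINGO1, a neuronal surface protein, had an interaction of -1.29 on the log2 scale (SE 0.146, edgeR adjusted p 2.08e-06): its levels were 5.399, 4.59 and 4.91 CPM in WT shControl, 14.3, 14.7 and 15.3 in WT shMBD6, 12.8, 14.5 and 14.3 in KO shControl and 19.7, 15.1 and 15.98 in KO shMBD6. The 3 groups other than WT shControl were close together. IL16 had -1.11 (edgeR adjusted p 1.07e-05), with a log2 difference for the hairpin of 0.42 in WT and -0.69 in KO. SH3GL3, an endophilin, had -0.95 (edgeR adjusted p 8.78e-05): it measured 5.47, 5.95 and 5.04 CPM in WT shControl and 9.51, 8.33 and 8.06 in KO shControl, but 9.34, 9.42 and 8.84 in WT shMBD6 and 7.699, 7.697 and 7.08 in KO shMBD6. It was the 1 member called higher in KO with shControl and lower with shMBD6.

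In the other direction, THSD4 had 1.49 (edgeR adjusted p 5e-05) and CA12 1.10 (edgeR adjusted p 0.000133). THSD4, CA12 and IL16 had means under 5 CPM in both WT groups and became members through their KO libraries. Their interaction values are therefore given as a description and rest on low counts in WT cells. CA12 measured 4.71, 3.54 and 3.55 CPM in WT shControl, 1.96, 2.796 and 2.49 in WT shMBD6, 16.9, 19.7 and 19.04 in KO shControl and 23.3, 26.3 and 24.5 in KO shMBD6. GCHFR, a regulator of GTP cyclohydrolase, had 0.80 (edgeR adjusted p 0.00133), with 10.9, 11.8 and 11.5 CPM in WT shControl, 7.86, 6.08 and 8.47 in WT shMBD6, 14.2, 12.6 and 17.4 in KO shControl and 17.4, 16.8 and 16.1 in KO shMBD6. Both fell with the hairpin in WT cells. GCHFR overlaps DNAJC17 on the other strand, and its interaction changed sign with spike-in scaling.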

How the results depend on the processing

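The shift of the chromosome and its direction held under each alternative run. With ERCC spike-in scaling the median of all genes moved by 1.26 (log2) with shControl and 0.31 with shMBD6, and the members' medians were 1.81 and 0.816; moved back to the median of all genes, they were 0.551 and 0.516. On that raw scale no member was lower with shControl and 1 with shMBD6, so 0 members went against the shift with both hairpins; shMBD6 gave 300 higher and 1 lower in WT and 163 higher and 14 lower in KO, and the interaction 1 higher and 295 lower. Signs changed with it for SCG3 (0.499 with shControl), MFGE8 (0.672 and 0.00235), ARRDC4 (0.998 and 0.0316), IDH2 (0.246 with shMBD6), the shMBD6 effect in WT of ANPEP (0.105) and APH1B (0.423), and the interaction of GCHFR (-0.154). These changes follow from moving all genes together. The members' median was 0.571 with library size alone (shControl) and 0.498 without the filter (shMBD6). The spread of the bin medians was 0.158 and 0.256 in bins of 5 Mb and 0.0758 and 0.231 with members from 10 CPM. Without the 50 most abundant genes in the total, the ratio of shares with shMBD6 was 1.42.

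Leaving out each library gave 3 to 5 members lower with shControl, 5 without KO shControl replicate 3 or without KO shMBD6 replicate 3, members' medians of 0.535 to 0.559 (shControl) and 0.49975 to 0.517 (shMBD6) and bin spreads of 0.0777 to 0.178 and 0.196 to 0.254. LTK with shControl ranged from -0.00515, without KO shControl replicate 3, to 0.143. The same 3 members, SCG3, MFGE8 and ARRDC4, were lower with both hairpins in each alternative but raw spike-in scaling, with ITPKA or MEX3B added in 1 fit each. Robust dispersions, an alternative added after seeing the data, gave 268 higher and 3 lower with shControl and 272 and 11 with shMBD6.

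Same-numbered libraries did not deviate together (correlations -0.0276 to 0.0169), so the numbers do not pair the samples; with a replicate block 274 members were higher and 3 lower with shControl, 273 and 11 with shMBD6, and 29 and 50 by the interaction. Not run were the difference from the members' median with DESeq2, with 6 libraries and with recentred spike-in scaling, and the interaction with 6 libraries. A single breakpoint lowered the deviation by 0.841%. Depth limits the low members: 76 of 302 had a mean under 20 CPM, and the median SE was 0.105 for the risers against 0.0615 for all members. The counts carry no molecular identifiers.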
